A study of Ictalurus punctatus x Ictalurus furcatus and Ictalurus furcatus and Ictalurus punctatus with 8 samples.

Results

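The livers of channel catfish and of the hybrid with a blue catfish mother were compared, as 4 of the 8 liver libraries of a study of catfish crosses. The members were taken by the labelled cross: 2 livers of PC, channel catfish (Ictalurus punctatus, C x C), and 2 livers of F1_BC, the cross of a female blue catfish (Ictalurus furcatus) with a male channel catfish. The other 4 livers, 2 of PB (blue catfish) and 2 of F1_CB (female channel catfish with male blue catfish), entered the estimate of the spread and are given side by side for single genes. All fish were 12 months old at sampling, and each type was reared in tanks of its own, so the effect of a type cannot be told apart from that of its tanks. The aim of the study was to learn why the growth of the hybrids relative to their parents depends on the culture environment. For this, poly(A) RNA of the liver was sequenced to look for genes that differ between the types.

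The liver makes most plasma proteins, turns surplus carbohydrate into fat, breaks down amino acids, makes bile acids from cholesterol and oxidizes foreign compounds with cytochrome P450 enzymes. In an F1_BC fish each cell holds a channel and a blue copy of the nuclear genes, while the mitochondria came with the egg of a blue mother. In F1_CB the same nuclear cross was made with a channel mother. All reads were mapped to the channel catfish genome, so reads from blue copies may have been recovered less well, and the part of mapping in any difference was not tested. The libraries are of whole tissue, in which fewer cells of a type and less RNA per cell cannot be told apart.

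Values are in CPM, that is, counts per gene with every library brought to the same sum, rescaled so that the median ratio between libraries is 1. The factors were 1.105 and 1.15 for the PC livers and 0.905 and 0.793 for the F1_BC livers. The 20 most abundant genes took 30.6 and 28.6% of the deposited total in PC and 37.1 and 39.0% in F1_BC, which lowers every other value of an F1_BC library before rescaling. The deposited values of each library sum to nearly the same total, so the read depth of each library is unknown. The F1_BC livers were close to each other (Spearman correlation 0.941 across 13408 genes, 157 genes more than 4-fold apart), and the PC livers were less so (0.876, 665 genes). PC liver 2 was nearer to F1_BC liver 1 (0.892) than to PC liver 1. Genes are not independent replicates, and these correlations describe the libraries only.

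A total of 127 genes, 0.947% of the 13408 analysed, were differentially expressed (DEGs: adjusted p under 0.05 in limma's moderated test over all 8 livers, Benjamini-Hochberg over all genes, and an absolute log2 difference over 1.5 on the log2(CPM + 0.5) scale). Of these, 97 (0.723%) were higher in F1_BC and 30 (0.224%) were higher in PC. At an unadjusted p under 0.05 there were 2194 genes (16.4%), 1230 (9.17%) higher in F1_BC and 964 (7.19%) higher in PC. Whatever the test, 49.5% of all genes had the higher mean log2 level in F1_BC and 50.5% in PC. In all 127 DEGs both livers of one type lay above both livers of the other. Such a separation was common over all genes, with both F1_BC livers above for 24% and both PC livers above for 23.7%. The DEGs were large differences, with a median absolute log2 difference of 3.04, and 69 of them were over 8-fold on this scale. Passing with 2 livers per type takes a large difference, and the smallest absolute log2 difference among the DEGs was 1.76. Over all genes, 1054 had an absolute log2 difference over 1.5. The signed median over all genes, which the rescaling holds near 0, was 0.01.

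**Figure D1:**
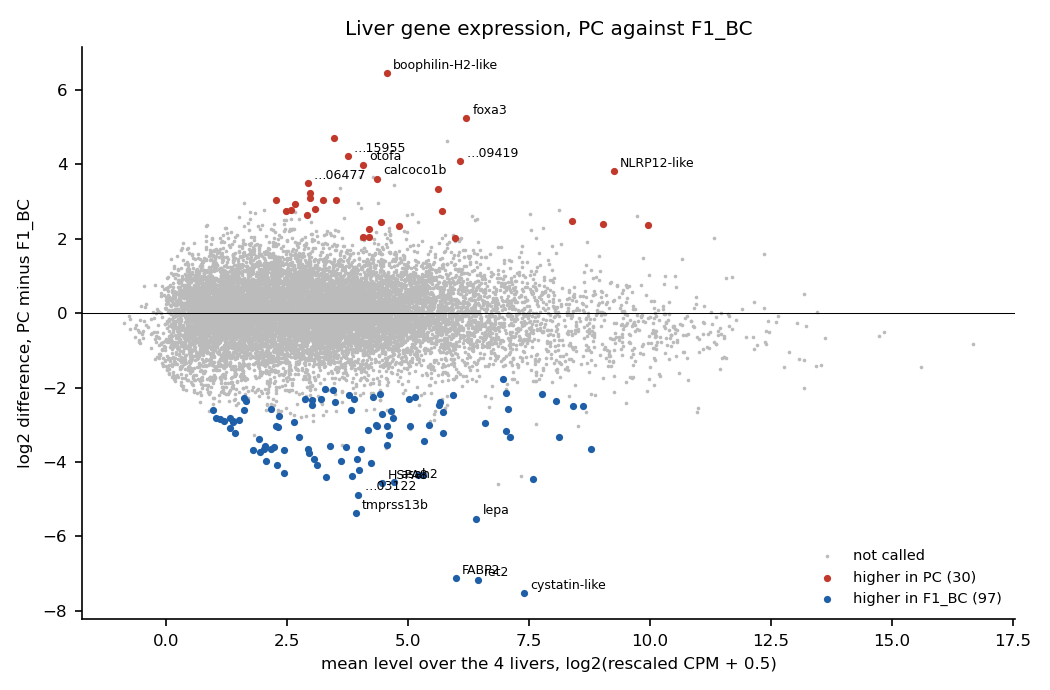
Log2 difference between PC and F1_BC (vertical axis) against the mean level over the 4 livers, log2(rescaled CPM + 0.5) (horizontal axis). Each point is 1 of 13408 genes, the 30 DEGs higher in PC are red and the 97 higher in F1_BC are blue, and 8 of the largest in each direction carry their names or the last digits of their identifiers.

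The gene with the greatest excess in PC was ENSIPUG00000021723, described as boophilin-H2-like, a relative of the Kunitz-type protease inhibitors that were named in ticks. It stood at 44.8 and 47.9 CPM in the PC livers and at 0.0476 and 0.0194 CPM in the F1_BC livers. The log2 difference was 6.46 ± 0.60 (SE, 2 livers per type, adjusted p = 0.000686 by limma). Blue catfish had 0.309 and 0.150 CPM and F1_CB had 10.6 and 2.42 CPM, so the PC livers lay above all 6 other livers. The next was foxa3, a forkhead factor that opens chromatin at liver genes in mammals. Its levels were 121 and 165 CPM in PC and 5.21 and 1.95 CPM in F1_BC, a difference of 5.25 ± 0.50 on the log2 scale (adjusted p = 0.000686 by limma).

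The reciprocal hybrid did not share the low foxa3 level. F1_CB had 139 and 228 CPM and PB had 5.79 and 3.04 CPM. Both hybrids hold a channel and a blue copy of the gene, and the F1_BC livers stood with blue catfish while the F1_CB livers stood with channel catfish. The log2 difference of F1_BC from F1_CB was -5.57 (adjusted p = 0.000829 by limma), in a comparison in which 0.134% of all genes were DEGs. The same split was seen for zbtb41, which encodes a zinc finger protein, with 100.4 and 77.1 CPM in PC, 93.3 and 72.3 in F1_CB, 10.3 and 6.695 in F1_BC and 1.89 and 5.03 in PB. PC exceeded F1_BC by 3.33 ± 0.47 on the log2 scale (adjusted p = 0.00795 by limma), and F1_BC differed from F1_CB by -3.23 (adjusted p = 0.0204 by limma). The other forkhead A genes measured, foxa1 and foxa2, had log2 differences between PC and F1_BC of -1.40 and 0.33 (adjusted p = 0.358 and 0.826 by limma). The adjusted p of zbtb41 reached 0.106 when 1 liver was left out, and it missed the threshold without PC liver 1 or without F1_BC liver 2.

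Of the 30 DEGs higher in PC, 3 fell in a list of pathways or families described further on, each in a different list. ENSIPUG00000012956, described as an NLRP12-like protein of the NACHT and leucine-rich repeat family of intracellular sensors, was among the 3 most abundant DEGs higher in PC, at 1583 and 706 CPM against 92.5 and 60.2 CPM. It was nearly silent in blue catfish (2.32 and 1.09 CPM) and overlapped F1_BC in F1_CB (363 and 55.8 CPM). Between PC and F1_BC the groups did not overlap, although the PC livers differed from each other by more than 2-fold, and the log2 difference was 3.82 ± 0.73 (adjusted p = 0.0337 by limma).

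Further DEGs higher in PC were otofa, encoding otoferlin, at 15.9 and 46.2 CPM against 2.202 and 0.618 CPM in F1_BC. calcoco1b, a coiled-coil protein gene, had 55.4 and 19.8 CPM against 2.71 and 1.84 CPM. mmp21, a matrix metallopeptidase, had 8.19 and 19.2 CPM against 1.003 and 1.06 CPM. In each the lower PC liver was several times the higher F1_BC liver. rabp1, described as cellular retinoic acid-binding protein 1, had 8.03 and 8.04 CPM against 0.227 and 0.9601 CPM, and TENM3, encoding a teneurin of the cell surface, had 18.6 and 14.4 CPM against 1.23 and 1.92 CPM. si:ch211-251b21.1, described as a probable glutamate receptor, had 13.4 and 13.8 CPM against 0.389 and 2.001 CPM and was listed at 0 in both blue catfish livers. Of the 14 largest differences on this side, 3 (ENSIPUG00000009419, ENSIPUG00000015955 and ENSIPUG00000006477) had neither symbol nor description, and the first of them was at 127 and 124 CPM in PC and 14.9 and 3.05 CPM in F1_BC.

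Only the boophilin-like gene and foxa3 of these 14 passed the test in each of the 8 fits that left out 1 liver. The other 12 missed it in at least 1 fit, with the highest adjusted p of a gene between 0.0721 and 0.288. Calls were lost for 10 genes without PC liver 1, 1 without PC liver 2, 8 without F1_BC liver 1 and 11 without F1_BC liver 2.

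**Figure D2:**
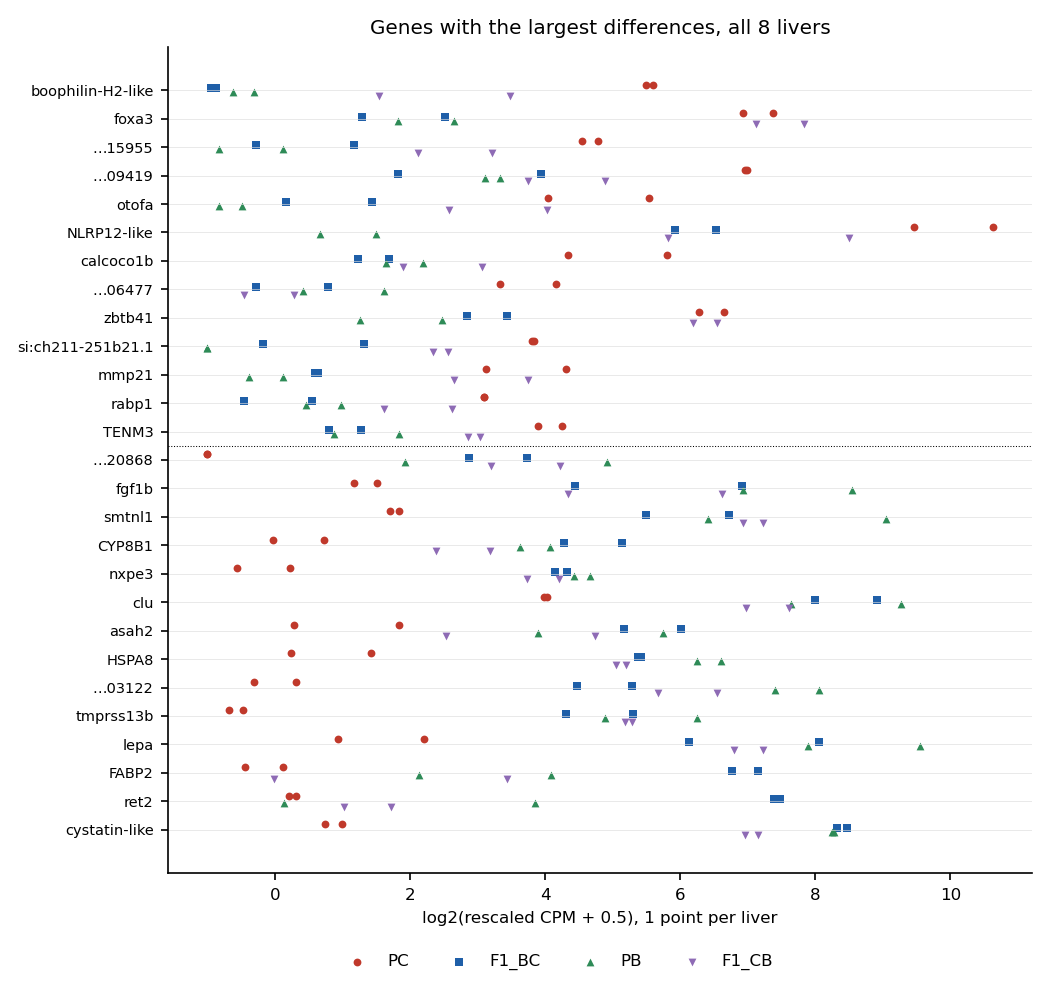
Levels of 13 of the 14 genes with the largest difference on the PC side and of the 14 on the F1_BC side, as log2(rescaled CPM + 0.5) on the horizontal axis, with 1 point for each of the 8 livers. Above the dotted line both PC livers (red circles) lie above both F1_BC livers (blue squares), and below it the order is turned; foxa3 and zbtb41 have F1_CB (purple) with PC, while FABP2 and ret2 have F1_BC alone at high levels.

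On the F1_BC side the largest difference was in ENSIPUG00000002512, a cystatin-like gene of the cysteine protease inhibitor family. It stood at 1.495 and 1.17 CPM in PC and 353 and 318 CPM in F1_BC, a log2 difference of 7.52 ± 0.36 (adjusted p = 1.12e-06 by limma). Blue catfish had 311 and 304 CPM and F1_CB had 141 and 123 CPM, so PC alone was low. Clusterin (clu), a secreted chaperone of plasma, was likewise low in PC alone, with 15.7 and 15.3 CPM in PC, 256 and 482 in F1_BC, 199.7 and 618 in PB and 195 and 126 in F1_CB. The difference between PC and F1_BC was 4.46 ± 0.53 on the log2 scale (adjusted p = 0.0023 by limma).

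A pair of genes for lipid-binding proteins was higher in F1_BC than in every liver of the other 3 types. FABP2, the fatty acid-binding protein of the intestinal epithelium, stood at 109 and 142 CPM in F1_BC and at 0.583 and 0.232 CPM in PC. ret2, described as retinol-binding protein 2, a carrier of vitamin A in the intestine of mammals, stood at 177 and 167 CPM and 0.659 and 0.743 CPM. The differences were 7.13 ± 0.92 and 7.17 ± 0.88 on the log2 scale (adjusted p = 0.00366 and 0.00273 by limma). PB had 16.4 and 3.896 CPM of FABP2 and 13.96 and 0.598 CPM of ret2, and F1_CB had 10.3 and 0.487 CPM of FABP2 and 2.801 and 1.54 CPM of ret2. F1_BC exceeded PB by 3.85 for FABP2 and 5.44 for ret2 (log2, adjusted p = 0.0472 and 0.00662 by limma, where 2.72% of all genes were DEGs), and exceeded F1_CB by 5.26 and 6.06 (adjusted p = 0.0586 and 0.0203 by limma), so the FABP2 difference from F1_CB did not pass the threshold. The other 3 measured markers of gut epithelium did not differ this way. anpepb, encoding an aminopeptidase, had 40.8 and 38.3 CPM in PC and 37.1 and 42.0 in F1_BC. slc15a1b, the peptide carrier, had 1.95 and 5.58 CPM and 1.703 and 1.89 CPM. cdh17, a cadherin of the gut, had 3.24 and 2.75 CPM and 0.369 and 0.750 CPM, and the sum over all 4 markers, FABP2 included, was 46.5 and 46.8 CPM in PC and 148 and 187 CPM in F1_BC.

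lepa, with the zebrafish symbol for leptin a, a hormone made in the liver of fish, was at 1.42 and 4.09 CPM in PC and 69.8 and 265 CPM in F1_BC. The F1_BC livers differed from each other almost 4-fold, but both were far above PC, and the log2 difference was 5.52 ± 0.68 (adjusted p = 0.00273 by limma). PB had 749 and 237 CPM and F1_CB had 149.8 and 111 CPM. The file describes this gene only as uncharacterized, so the name rests on the symbol. It was the sole DEG among 36 genes of the growth hormone, IGF, insulin and leptin axis (2.78%, against 0.723% of all genes higher in F1_BC). Of the 36, 7 had an unadjusted p under 0.05 higher in F1_BC and 1 higher in PC, against 9.17 and 7.19% of all genes. igfals, the acid-labile subunit that holds IGF in plasma, had 112 and 76.2 CPM in PC and 253 and 389 CPM in F1_BC (adjusted p = 0.11 by limma). igfbp1a, an IGF-binding protein, had 169 and 40.2 CPM in PC and 339.7 and 249 CPM in F1_BC (adjusted p = 0.186 by limma). The growth hormone receptor gene ghr had 673 and 336 CPM and 434 and 469 CPM, and its groups overlapped.

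Other large differences on this side were in genes that were almost silent in channel catfish. tmprss13b, a membrane serine protease, had 0.127 and 0.224 CPM in PC and 19.4 and 38.9 CPM in F1_BC. An nxpe3 copy (ENSIPUG00000002999) had 0.178 and 0.670 CPM and 19.6 and 17.2 CPM. An HSPA8 copy (ENSIPUG00000006340), a constitutive heat shock protein of the 70 kDa family, had 0.685 and 2.19 CPM and 42.4 and 40.9 CPM. The PC livers were the lowest of all 8 livers for these 3 genes. HSPA8 as a whole was not silent in PC. Another gene with that symbol (ENSIPUG00000006424) had 559 and 1019 CPM in PC and 2211 and 2398 CPM in F1_BC (adjusted p = 0.108 by limma). asah2, a neutral ceramidase, had 0.710 and 3.06 CPM and 64.3 and 35.4 CPM, and smtnl1, a smoothelin-like gene, had 2.76 and 3.07 CPM and 106 and 44.7 CPM. A rhamnose-binding lectin-like gene (ENSIPUG00000020868) was listed at 0 in both PC livers and stood at 12.8 and 6.81 CPM in F1_BC. In all, 36 of the 97 DEGs higher in F1_BC had both PC livers under 1 CPM, and 5 were listed at 0 in both. On the other side, 3 of 30 DEGs had both F1_BC livers under 1 CPM. Lectins, cystatins and the HSPA8 copies are families of similar genes, and reads shared between copies may have been split by the counting.

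Of the 14 largest differences higher in F1_BC, 10 passed the test in each of the 8 fits without 1 liver. The other 4, asah2, smtnl1, fgf1b and the lectin, missed it in at least 1, with the highest adjusted p of a gene between 0.113 and 0.383. Calls were lost for 4 of them without PC liver 1, 1 without PC liver 2, 3 without F1_BC liver 1 and 3 without F1_BC liver 2.

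Grouped by function, 21 of the 127 DEGs fell in at least 1 of 29 lists of pathways, families and complexes, and 106 fell in none. Of the 29 lists, 16 held no DEG. As 0.947% of all genes were DEGs, lists of these sizes can hold none at that share. A list said here to hold no DEG therefore shows no difference from all genes. The cytochrome P450 family held the most, with 6 of 38 measured members (15.8%, against 0.723% of all genes higher in F1_BC), all higher in F1_BC. A pair of them were copies of CYP8B1, the sterol 12-alpha-hydroxylase that sets the balance of bile acids. The first copy (ENSIPUG00000010416) had 0.482 and 1.16 CPM in PC and 18.99 and 34.9 CPM in F1_BC, and the next (ENSIPUG00000006105) had 2.69 and 10.9 CPM and 39.6 and 106 CPM. The log2 differences were 4.36 ± 0.50 and 3.44 ± 0.63 (adjusted p = 0.0019 and 0.0271 by limma). The third copy (ENSIPUG00000006112) had 14.6 and 63.7 CPM and 90.2 and 252 CPM and did not pass (adjusted p = 0.13 by limma). cyp7a1, the rate-limiting enzyme of bile acid synthesis, had 79.9 and 46.5 CPM in PC and 85.6 and 556 CPM in F1_BC, with 1 F1_BC liver far above the rest (adjusted p = 0.381 by limma).

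The other P450 DEGs were a pair of the cyp2k family, a cyp3c gene and a gene without a family name. cyp2k6 had 0.127 and 0.161 CPM in PC and 7.82 and 6.43 CPM in F1_BC. cyp2k19 had 0.380 and 0.00526 CPM and 5.04 and 11.3 CPM. cyp3c3 had 18.96 and 11.3 CPM and 78.1 and 90.7 CPM. In all 3 both F1_BC livers were above both PC livers, by log2 differences of 3.56 ± 0.44, 3.60 ± 0.63 and 2.48 ± 0.48 (adjusted p = 0.00273, 0.0226 and 0.036 by limma). The sixth, ENSIPUG00000011019, described only as a cytochrome P450, had 0.786 and 0.552 CPM and 7.84 and 15.6 CPM. At an unadjusted p under 0.05, 11 members were higher in F1_BC and 3 in PC (against 9.17 and 7.19% of all genes), the latter including a cyp3a65 copy (ENSIPUG00000012663) with 15.5 and 25.7 CPM in PC and 6.96 and 5.98 CPM in F1_BC. The count of 6 fell to 2 without PC liver 1, without F1_BC liver 1 or without F1_BC liver 2. The P450 copies are similar in sequence, and their reads may have been split by the counting.

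In bile acid synthesis and transport the CYP8B1 pair were the sole DEGs among 15 members (13.3%, against 0.723% of all genes). The median log2 difference was -0.999 (higher in F1_BC), against 0.01 over all genes, and 6 members had an unadjusted p under 0.05, all higher in F1_BC (against 9.17% of all genes). amacr, a racemase of the side chain, had 11.9 and 12.3 CPM in PC and 39.5 and 36.7 CPM in F1_BC, and akr1d1, the 5-beta-reductase, had 34.9 and 18.4 CPM and 64.0 and 93.9 CPM. In both genes the groups were separate, with an adjusted p of 0.0775 and 0.117 by limma.

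Amino acid breakdown held 3 DEGs among 49 members, all higher in F1_BC (6.12%, against 0.723% of all genes). The count covers the listed genes only. ASS1, argininosuccinate synthase of the urea cycle, had 32.2 and 70.9 CPM in PC and 619 and 385 CPM in F1_BC, a log2 difference of 3.34 ± 0.52 (adjusted p = 0.0131 by limma). otc, ornithine carbamoyltransferase of the same cycle, had 0.608 and 0.455 CPM and 14.4 and 15.9 CPM (3.93 ± 0.53, adjusted p = 0.0049 by limma). csad, which makes the taurine precursor hypotaurine, had 15.1 and 28.0 CPM and 115 and 228 CPM (2.95 ± 0.47, adjusted p = 0.0141 by limma). PB and F1_CB were near F1_BC for ASS1, at 712 and 285 CPM in PB and 502 and 416 CPM in F1_CB. For otc, PB had 10.3 and 5.28 CPM and F1_CB had 10.2 and 4.06 CPM. For csad, PB had 235 and 367 CPM and F1_CB had 55.7 and 43.3 CPM. F1_CB thus lay between PC and F1_BC for otc and csad. arg1, the arginase that ends the urea cycle, had 100.04 and 72.6 CPM in PC and 334 and 276 CPM in F1_BC and did not pass (adjusted p = 0.0561 by limma), and neither did asl, which follows ASS1 in the cycle, with 7.604 and 4.398 CPM in PC and 2.96 and 3.07 CPM in F1_BC (adjusted p = 0.384 by limma). cdo1, cysteine dioxygenase, ran the other way at 4917 and 3853 CPM in PC and 2599 and 1876 CPM in F1_BC (adjusted p = 0.279 by limma). Outside the list, aadat, aminoadipate aminotransferase, was a DEG at 2.89 and 3.81 CPM in PC and 14.6 and 15.8 CPM in F1_BC (adjusted p = 0.0446 by limma). So was adob, described as like 2-aminoethanethiol dioxygenase, at 0.532 and 0.104 CPM and 9.73 and 9.43 CPM (adjusted p = 0.0121 by limma). Both were picked after their values were seen, and neither call was kept in every fit without 1 liver. The count of 3 was 1 without PC liver 1 or F1_BC liver 1 and 0 without F1_BC liver 2.

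Genes of lipid handling were spread over several lists. In triglyceride and phosphatidate turnover 2 of 37 members were DEGs higher in F1_BC (5.41%, against 0.723% of all genes), plpp1a and PLPP1, both phospholipid phosphatases that make diacylglycerol. plpp1a had 1.19 and 7.32 CPM in PC and 45.1 and 39.4 CPM in F1_BC (log2 difference 3.55 ± 0.61, adjusted p = 0.0207 by limma). PLPP1 had 1.72 and 6.03 CPM and 17.6 and 29.0 CPM (2.60 ± 0.55, adjusted p = 0.0496 by limma). The call for plpp1a was lost without PC liver 1 or either F1_BC liver (adjusted p up to 0.135), and that for PLPP1 was kept in 1 of the 8 fits without 1 liver (up to 0.501). In cholesterol synthesis and uptake 1 of 28 was a DEG higher in F1_BC (3.57%, against 0.723% of all genes). This was ldlra, the LDL receptor, at 91.7 and 125 CPM in PC and 373 and 981 CPM in F1_BC (log2 difference 2.49 ± 0.52, adjusted p = 0.0494 by limma). It was among the 3 DEGs of highest mean CPM on the F1_BC side and lay close to the threshold. It did not pass in the fits without either F1_BC liver, without PC liver 1 or without either F1_CB liver. The highest adjusted p among them was 0.533.

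Fatty acid synthesis held no DEG among 19 members, although 14 were higher in F1_BC (against 49.5% of all genes) and the median was -0.59. fasn, fatty acid synthase, had 16.3 and 477 CPM in PC and 495 and 650.4 CPM in F1_BC, and scdb, stearoyl-CoA desaturase, had 110.5 and 1328 CPM and 1341 and 1578 CPM. PC liver 1 was low for both genes and PC liver 2 was near F1_BC (adjusted p = 0.32 and 0.314 by limma). The median of the list was -0.26 without PC liver 1 and -1.36 without PC liver 2. thrsp, a regulator of fat synthesis, was instead even within each type, at 5809 and 6174 CPM in PC and 17484 and 14494 CPM in F1_BC (adjusted p = 0.21 by limma). Fatty acid oxidation held no DEG among 35, with 27 higher in F1_BC (against 49.5% of all genes). These counts cover the listed genes only. Outside both lists, elovl8b, described as similar to an elongation protein of very long chain fatty acids, was a DEG. It had 16.7 and 14.8 CPM in PC and 77.6 and 91.3 CPM in F1_BC (log2 difference -2.38, adjusted p = 0.0226 by limma). It was chosen after its values were seen, and its call was not kept in every fit without 1 liver. phyh, also a DEG outside the lists, is given further on. Besides ldlra, vldlr, the very low density lipoprotein receptor, was a DEG and stood in no list. It had 4.82 and 2.82 CPM in PC and 19.0 and 15.4 CPM in F1_BC (log2 difference -2.07, adjusted p = 0.0434 by limma). vldlr was chosen after its values were seen, and its call was not kept in any fit without 1 liver. The apolipoprotein list held no DEG among 16 members. Of these, 11 were higher in F1_BC and 5 in PC (against 49.5 and 50.5% of all genes), and the median was -0.27. afp4, described as apolipoprotein A2, and ENSIPUG00000003008, described as apolipoprotein A-I-like, stood in no list and were DEGs. afp4 had 12.1 and 45.9 CPM in PC and 251 and 238 CPM in F1_BC (log2 difference -3.34, adjusted p = 0.0247 by limma). PB had 18.5 and 9.26 CPM of afp4 and F1_CB had 9.76 and 4.75 CPM, so F1_BC alone was high, as for FABP2 and ret2. ENSIPUG00000003008 was low, at 9.56e-05 and 0.123 CPM in PC and 3.08 and 2.66 CPM in F1_BC (-2.59, adjusted p = 0.0331 by limma). Both were chosen after their values were seen. Neither call was kept in every fit without 1 liver, unlike those of FABP2 and ret2.

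The lists of acute phase, iron and heme genes, of clotting genes and of hepatocyte markers held 1 DEG each. hmox, heme oxygenase, had 28.8 and 135 CPM in PC and 965 and 640.5 CPM in F1_BC, a log2 difference of 3.64 ± 0.63 (adjusted p = 0.0214 by limma), and was the most abundant DEG on the F1_BC side. F1_CB was also high, at 829 and 365 CPM, while PB lay within the range of PC, at 44.0 and 38.4 CPM. Both hybrids were thus above both parents in every liver. F1_BC exceeded PB by 4.24 on the log2 scale (adjusted p = 0.00405 by limma). A copy of MFAP4 (ENSIPUG00000011412), described as a microfibril-associated glycoprotein, had the same order, with 81.5 and 95.8 CPM in PC, 75.6 and 90.9 in PB, 279.7 and 896 in F1_BC and 463 and 417 in F1_CB (PC against F1_BC adjusted p = 0.0413 by limma). The call for hmox was lost without PC liver 1 and without either F1_BC liver (adjusted p up to 0.13). That for MFAP4 was lost without PC liver 1, without F1_BC liver 2 and without any 1 of the PB or F1_CB livers (up to 0.474).

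f9b, coagulation factor IX, was the 1 DEG of 23 clotting genes (4.35%, against 0.723% of all genes higher in F1_BC). It had 42.2 and 51.8 CPM in PC and 167 and 257 CPM in F1_BC (log2 difference 2.14 ± 0.42, adjusted p = 0.0416 by limma). ttr, transthyretin, the carrier of thyroid hormone, was the 1 DEG of 20 hepatocyte markers (5.0%, against the same 0.723%). It had 44.2 and 13.8 CPM in PC and 182 and 277 CPM in F1_BC (3.16 ± 0.54, adjusted p = 0.0207 by limma). The call for f9b was lost without PC liver 1, either F1_BC liver or either F1_CB liver (adjusted p up to 0.474), and that for ttr without either F1_BC liver (up to 0.222). Of the other 2 of the 3 most abundant DEGs of PC, ENSIPUG00000007155, described as the SON DNA binding protein, had 1278 and 2054 CPM in PC and 449 and 219 CPM in F1_BC, and its call was lost in each of the 8 fits without 1 liver. ENSIPUG00000012356, with no description, had 1031 and 702 CPM and 104 and 253 CPM and kept its call in 1 of the 8.

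The 25 of 29 list medians that lay below 0 (higher in F1_BC) included ribosomal proteins, the respiratory chain and the proteasome. None of these lists held a DEG, where 0.947% of all genes were DEGs. Of 90 cytosolic ribosomal protein genes, 81 were higher in F1_BC (against 49.5% of all genes), 23 with an unadjusted p under 0.05 (against 9.17% of all genes), and the median was -0.47. rpl13 had 173 and 694 CPM in PC and 1213 and 1834 CPM in F1_BC, and rps7 had 3263 and 2437 CPM and 2447 and 3235 CPM. As deposited, without rescaling, the median over all genes was 0.37 and that of the ribosomal proteins was -0.06. Of 95 respiratory chain genes 80 were higher in F1_BC (median -0.54), and of 54 chaperones 41 were (median -0.79). The chaperones held 1 DEG, the HSPA8 copy (1.85%, against 0.723% of all genes higher in F1_BC). hspa5, the main chaperone of the endoplasmic reticulum, had 5.65 and 4.75 CPM in PC and 12.7 and 61.0 CPM in F1_BC, with F1_BC liver 2 well above the rest (adjusted p = 0.164 by limma). Without rescaling, 11 of the 29 medians changed sign, while 26 lay below the median of all genes, as 25 did after rescaling.

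**Figure D3:**
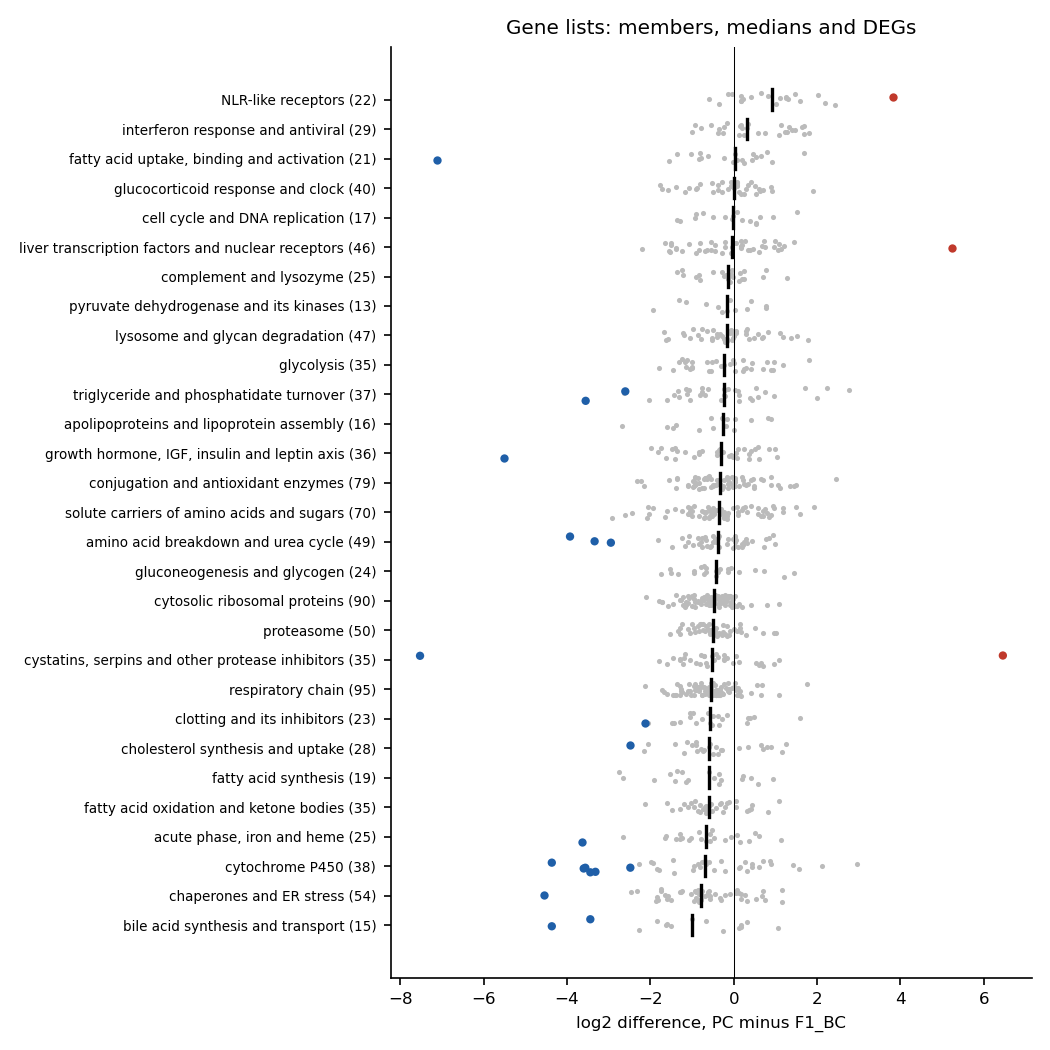
Log2 difference between PC and F1_BC (horizontal axis, to the right higher in PC) for each measured member of 29 gene lists, with the number of members in brackets. Grey points are genes that are no DEG, blue and red points are DEGs higher in F1_BC and in PC, and black bars are list medians, which run from -0.999 for bile acid genes to 0.92 for NLR-like receptors.

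Intracellular innate immune sensors had the highest median of the 29 lists. Of 22 NLR-like receptor genes, 18 were higher in PC, 8 with an unadjusted p under 0.05 (against 7.19% of all genes) against none higher in F1_BC, and 1 was a DEG (4.55%, against 0.224% of all genes higher in PC). The median log2 difference was 0.92. ENSIPUG00000015740, also NACHT and leucine-rich repeat, had 50.1 and 29.6 CPM in PC and 7.86 and 8.15 CPM in F1_BC, and nod2, a sensor of bacterial cell wall, had 7.15 and 2.88 CPM and 0.443 and 0.449 CPM. Their groups were separate, but neither passed (adjusted p = 0.0693 and 0.0765 by limma). nlrx1, a member that sits in mitochondria, had 71.3 and 12.4 CPM and 10.2 and 9.09 CPM, with PC liver 1 far above the rest. The median was 0.38 without PC liver 1 and 1.11 without PC liver 2. NLR genes form a large family in fish, and reads of similar copies may have been split by the counting.

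The interferon and antiviral list held no DEG among 29 members, 20 of which were higher in PC (against 50.5% of all genes, list median 0.32). At an unadjusted p under 0.05 there were 6, all higher in PC (against 7.19% of all genes). ifih1, a sensor of viral RNA, had 15.3 and 15.9 CPM in PC and 5.34 and 5.96 CPM in F1_BC, and samhd1, a nucleotide hydrolase that restricts viruses, had 22.8 and 22.3 CPM and 11.1 and 4.298 CPM. Both were separate between the types without passing (adjusted p = 0.164 and 0.153 by limma). irf1a ran the other way, at 189.7 and 291 CPM and 383 and 433 CPM. So did ENSIPUG00000004454, described as interferon lambda receptor 1-like, which has no symbol and stood in no list. It was a DEG, at 8.14 and 5.43 CPM in PC and 68.6 and 48.4 CPM in F1_BC (log2 difference -3.02, adjusted p = 0.00396 by limma). It was picked after its values were seen, and its call was lost without F1_BC liver 1. The complement and lysozyme list held no DEG among 25 (median -0.13, but 0.28 without rescaling and 0.07 with quantile normalization). At an unadjusted p under 0.05 it had 3 members, all higher in F1_BC (against 9.17% of all genes). lysc, lysozyme c, had 0.837 and 10.03 CPM in PC and 0.719 and 1.47 CPM in F1_BC (adjusted p = 0.492 by limma). Lysosome and glycan degradation held no DEG among 47, and the glucocorticoid response and clock list held none among 40. Outside that list, ENSIPUG00000018768, described as a serine/threonine-protein kinase like Sgk1, was a DEG at low levels. It had 0.102 and 0.223 CPM in PC and 3.10 and 6.01 CPM in F1_BC (log2 difference -2.88, adjusted p = 0.0471 by limma). This gene was picked after its values were seen, and its call was not kept in every fit without 1 liver.

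Quantitative PCR was also run on a few genes, whose sequencing values are given here. Those of hmox and cyp2k19 stand above. The gene fgf1b, fibroblast growth factor 1, had 2.36 and 1.75 CPM in PC and 21.3 and 120.4 CPM in F1_BC. Its log2 difference, PC minus F1_BC, was -4.34 ± 0.85 (adjusted p = 0.0371 by limma). It was a DEG, but the F1_BC livers differed by more than 5-fold, and the call was lost without either PC liver or without F1_BC liver 2 (adjusted p up to 0.383). irf7, an interferon regulator, had 24.9 and 12.2 CPM and 7.63 and 8.44 CPM (1.08 ± 0.45, adjusted p = 0.261 by limma). tm4sf4, a tetraspan membrane protein, had 105 and 104 CPM and 277 and 523 CPM (-1.86 ± 0.66, adjusted p = 0.194). creg1, a lysosomal glycoprotein, had 30.4 and 31.3 CPM and 41.2 and 47.3 CPM (-0.51 ± 0.39, adjusted p = 0.551). In these 3 genes the groups were separate, but the differences did not pass limma's test.

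Markers of hepatocytes were abundant in all 4 livers. fabp10a, the liver fatty acid-binding protein, had 22400.1 and 20576 CPM in PC and 35848 and 30609.5 CPM in F1_BC. The sum over 20 hepatocyte markers was 110700 and 103754 CPM in PC and 168634 and 224448 CPM in F1_BC. Of the 20, 19 were higher in F1_BC (against 49.5% of all genes, list median -0.82). Markers of the exocrine pancreas, which in many fish lies within or along the liver, differed between livers of the same type. prss1, trypsin, stood at 140.4 and 1509.8 CPM in PC and 576 and 115 CPM in F1_BC, and CPA1, carboxypeptidase A1, at 42.3 and 679 CPM in PC and 201 and 61.1 CPM in F1_BC. PC liver 2 and F1_BC liver 1 were the high livers for both. None of 15 pancreas markers was a DEG, and their median of -0.11 turned to 0.29 without rescaling, to 1.79 without PC liver 1 and to -1.90 without PC liver 2. The sum over the 15 markers was 7957 and 6782 CPM in PC and 3526 and 2613 CPM in F1_BC, with PNLIPRP2, a lipase, at 5909.6 and 2439 CPM in PC and 1031 and 846 CPM in F1_BC (adjusted p = 0.125 by limma).

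The sum over 12 red blood cell markers was 1061 and 1855 CPM in PC and 1198 and 860.4 CPM in F1_BC, with no DEG. Of the 12, 9 were higher in PC and 7 had both PC livers above both F1_BC livers (against 23.7% of all genes), and the median was 0.60, opposite in direction to that of the hepatocyte markers. The sum over 20 leukocyte markers was 819.8 and 1305 CPM in PC and 882.7 and 1576 CPM in F1_BC, also with no DEG (median -0.34, but 0.03 without rescaling and 0.23 without F1_BC liver 2), and the sums of both lists overlapped between the types. Of these 20, 14 were higher in F1_BC and 6 in PC. ENSIPUG00000013048, described as macrophage receptor with collagenous structure, has no symbol and stood in no list. It was a DEG, at 3.83 and 6.91 CPM in PC and 27.7 and 48.4 CPM in F1_BC (log2 difference -2.71, adjusted p = 0.0207 by limma). PB had 117 and 117 CPM of it and F1_CB had 3.26 and 1.79 CPM. It was picked after its values were seen, and its call was not kept in every fit without 1 liver. Among 24 endothelial and stellate cell markers 1 was a DEG (4.17%, against 0.723% of all genes higher in F1_BC). This was lyve1a, at 0.532 and 0.136 CPM in PC and 6.704 and 2.85 CPM in F1_BC. Its call was lost in each of the 8 fits without 1 liver. The part of cell makeup in the differences above was not tested.

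**Figure D4:**
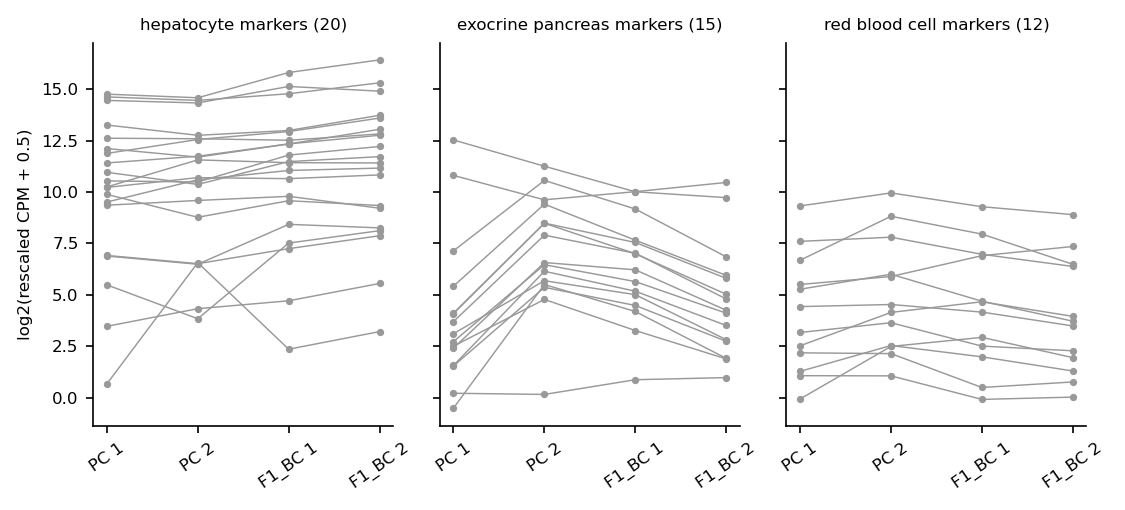
Levels of 20 hepatocyte, 15 exocrine pancreas and 12 red blood cell markers (log2(rescaled CPM + 0.5), vertical axis) in the 2 PC and 2 F1_BC livers, with 1 line per gene. Most pancreas markers peak in PC liver 2 and are low in PC liver 1 and F1_BC liver 2, as prss1 does.

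The number of DEGs moved with single livers. It was 46 without PC liver 1 and 408 without PC liver 2, and 31 and 25 without F1_BC livers 1 and 2. Without 1 of the PB or F1_CB livers it lay between 83 and 122. More DEGs were higher in F1_BC than in PC in each of these 8 fits, but the balance depended on scale. As deposited, without rescaling, 50 were higher in PC and 58 in F1_BC, so the share higher in PC was 46.3% and not 23.6%. Of the 127 DEGs, 17 passed the test in each of the 8 fits without 1 liver and under all 11 other alternatives. These were the boophilin-like gene and foxa3 on the PC side and 15 genes on the F1_BC side, among them the cystatin-like gene, ret2, FABP2, lepa, tmprss13b, clu, an nxpe3 copy and a CYP8B1 copy. Of the 13 DEGs of the pathway and family lists that were not among the 14 largest in their direction, none passed in all 8 fits. Their calls were lost for 11 without PC liver 1, 1 without PC liver 2, 11 without F1_BC liver 1 and 12 without F1_BC liver 2, with the highest adjusted p of a gene between 0.0524 and 0.533. No DEG changed direction in any fit in which it was analysed. As the PC and F1_BC livers were separate in every DEG, leaving out 1 liver could hardly have turned one.

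**Figure D5:**
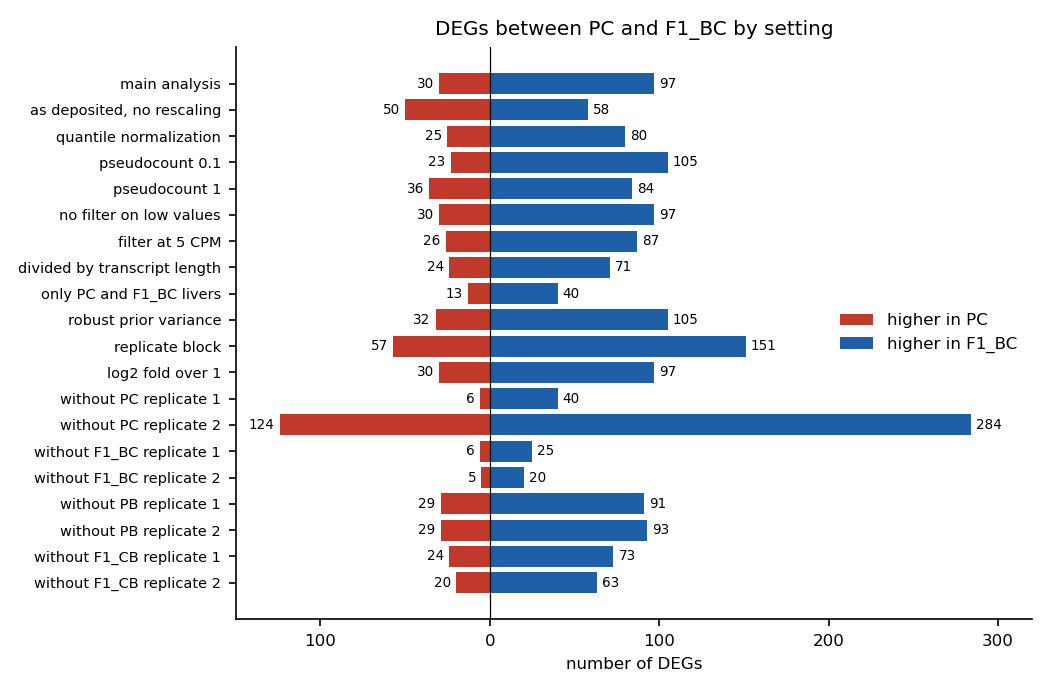
Number of DEGs (horizontal axis) higher in PC (red, to the left) and higher in F1_BC (blue, to the right) in the main analysis and under each alternative, 1 row per setting. Leaving out PC liver 2 raises the counts to 124 and 284, while leaving out any other PC or F1_BC liver lowers the total to between 25 and 46.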

How the data were processed

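RNA-seq of poly(A) RNA from 8 livers, 2 for each of 4 types at 12 months of age, was used, and PC was set against F1_BC. The authors aligned trimmed reads to the genome of channel catfish (TopHat2 2.1.1), took counts per gene model (bedtools 2.29.0) and ran edgeR. The genome build and the strand setting of the counting are not given in the sources used here, so overlapping and antisense genes cannot be told apart. The deposited table holds 13444 genes and names its values RPKM, but each library sums to between 996838 and 998652 and a gene's mean log2 value equals the deposited logCPM, an authors' log2 value (median difference -0.0089; -1.68 if the values are divided by length), so the deposited values were taken as CPM. Levels of different genes are therefore not per length. Where genes are called most abundant, the rank is by mean CPM, which is not corrected for transcript length. The low values gave no whole reads, so no count test was run and the depth is unknown. The table's columns of the authors' own comparisons hold log2 fold changes, p-values and FDR values for pairs of types, and these were not used.

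Values under 1e-10 were set to 0. Libraries were rescaled by the median of ratios over genes above 0 in all 8. Of the genes, 13408 had a type mean above 1 CPM and were kept. limma 3.58.1 in R 4.3.3 (lmFit, contrasts.fit, eBayes with trend, two-sided) was fitted to log2(CPM + 0.5) of all 8 livers with 4 type means, which leaves 4 residual degrees of freedom, and p-values were adjusted by Benjamini-Hochberg. Fold changes on this scale understate those of low genes. For PC against F1_BC, a minus sign marks a value higher in F1_BC. Unsigned differences of genes higher in F1_BC are absolute values. The fish of each type were picked at random, but the tank of each fish is not recorded. With 2 livers per type, p-values measure the spread between these livers only. The script was tested on simulated data.

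The genes named were the 14 DEGs of largest difference in each direction, up to 6 DEGs of each list, list members of high level, the genes the study measured by quantitative PCR and the 3 most abundant DEGs in each direction; others were picked as examples after their values were seen, and 1 gene is not reported here. The comparison, the lists (29 of pathways, families and complexes and 10 of markers) and the rule were chosen with earlier results of these data known. From the lists, 11 genes that had matched by spelling alone were removed. The alternatives were another scaling, pseudocount, filter, fold threshold, variance prior and set of livers, division by transcript length, the replicate number as a block and leaving out each liver.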

Additional observations from a re-analysis of the deposited data

How the results depend on the processing

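Of 127 DEGs (30 higher in PC, 97 higher in F1_BC), all kept their direction under every alternative in which they were analysed. In each of them both livers of one type lay above both livers of the other. Leaving out a liver could therefore hardly turn a direction, and the kept directions are no separate support. With 2 livers per type, leaving out 1 PC or F1_BC liver leaves a type with 1 liver, which is assumed to vary like the others. The counts then ran from 25 to 408 in all, from 5 to 124 higher in PC and from 20 to 284 higher in F1_BC, the highest without PC liver 2 and the lowest without F1_BC liver 2, and 17 genes passed in each of the 8 fits without 1 liver of any type. Without rescaling, 108 genes passed, 50 higher in PC and 58 higher in F1_BC. A fit of the PC and F1_BC livers alone gave 53 (13 and 40). Quantile normalization gave 105, a pseudocount of 0.1 gave 128 and 1 gave 120, a filter at 5 CPM gave 113, division by transcript length gave 95 and a robust prior gave 137. A lower log2 threshold of 1, which cannot lose a call, gave the same 127. The labels give the livers of each type the replicate numbers 1 and 2. The deviations of same-numbered livers correlated across genes at 0.07 for PC and F1_BC and at -0.01 to 0.14 over the 6 pairs of types, above 0.1 in 3 of them. No label says what a number stands for, so no pairing was taken as given, and the fit with the replicate block gave 208 DEGs (57 and 151), including all 127. Among the values of named genes under the alternatives, 767 stayed on their side of the threshold and 164 of DEGs no longer passed. No DEG among them changed direction. For the named genes that are no DEG, a change of direction was not recorded. The cause of these shifts was not tested. With 2 livers per type and unknown depth, differences in genes that did not pass cannot be taken as absent.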

Other observations

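Outside the lists, several DEGs were chosen as examples after their values were seen. sfxn1, encoding sideroflexin-1, a serine carrier of mitochondria, was at 752 and 386 CPM in PC and at 120.4 and 77.3 CPM in F1_BC. On the other side, idh1, the cytosolic isocitrate dehydrogenase that makes NADPH, was at 55.5 and 128 CPM in PC and at 474 and 402 CPM in F1_BC. fh, fumarate hydratase, was at 4.13 and 17.9 CPM in PC and at 65.1 and 83.1 CPM in F1_BC. phyh, the phytanoyl-CoA hydroxylase of peroxisomes, was at 56.0 and 55.9 CPM in PC and at 193 and 189 CPM in F1_BC. mb, myoglobin, was at 1.24 and 2.19 CPM in PC and at 40.0 and 30.2 CPM in F1_BC. The sum over 7 skeletal muscle markers was 87.6 and 70.0 CPM in PC and 111 and 136 CPM in F1_BC, with no DEG. Of these 7, 5 had both F1_BC livers above both PC livers (against 24% of all genes) and 2 were higher in PC. Their median log2 difference was -1.13, and 2 had an unadjusted p under 0.05, both higher in F1_BC (against 9.17% of all genes). zar1, an oocyte gene in mammals and fish, was at 0.330 and 0.642 CPM in PC and at 13.9 and 18.1 CPM in F1_BC. All 6 passed limma's test over all genes, but of the 8 fits without 1 liver, sfxn1, idh1 and fh passed in 3, phyh in 0, zar1 in 5 and mb in 8. The highest adjusted p in those fits was 0.469 for sfxn1, 0.211 for idh1, 0.284 for fh, 0.418 for phyh, 0.115 for zar1 and 0.0201 for mb.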
